A study of Pogona vitticeps with 24 samples.

Results

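The comparison described here is that of posterior dental mesenchyme between Sca/+ and wild-type (WT) hatchlings of the bearded dragon Pogona vitticeps. For each gene, the level in Sca/+ mesenchyme was set against that in WT mesenchyme. The members are the 9987 genes, of 11126 in the deposited table, that passed a filter on level. Their mean over the 7 usable group columns was at least 3 log2 CPM (read counts scaled to a library size as normalized by the authors). The study laser-captured dental lamina epithelium and the mesenchyme around it at a posterior and an anteriormost jaw position, in order to trace where the difference between acrodont teeth, fused to the crest of the jaw, and pleurodont teeth, attached to its inner side, arises. It sequenced 24 samples in 8 groups of 3. The Sca/+ group is labelled scaleless and, by the description of the animals, is heterozygous for a mutation at the locus of EDA (ectodysplasin). The WT group carries none, and hatchlings with a successional dental lamina were used for both, 3 per genotype. Teeth at the posterior position are acrodont in WT, and the tooth phenotype of the mutant animals was judged only roughly before sectioning.

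Ectodysplasin is a ligand of the tumor necrosis factor family that epithelial appendages such as teeth, hairs, feathers and scales use during their development. It binds the receptor EDAR, whose adaptor EDARADD leads to the activation of the transcription factor NF-kappaB. One of the targets of NF-kappaB is its own inhibitor NFKBIA. Dental mesenchyme forms the papilla, which makes dentin, and the follicle, which gives rise to the tissues that attach a tooth to the jaw. It exchanges Wnt, BMP, FGF and Hedgehog signals with the epithelium above it.

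The deposited table holds 1 value per group, named by the authors as a mean, so that no spread between animals stands behind any value below and no gene could be tested. Every value is a whole multiple of a smallest step, 0.567 CPM in the Sca/+ column and 0.927 CPM in the WT column. The Sca/+ column holds 1837779 such steps and the WT column 1130499. Each difference is therefore given with an exact 95% interval (Clopper-Pearson) that treats a step as 1 count and covers counting error only. Multiples of a single step are what 1 library or pooled reads would give. Whether a column is a mean of 3 samples could not be told. Whether a step is 1 read is not stated in the sources used here, and the intervals rest on that reading. Higher and lower are used for differences of 1 log2 unit (2-fold) or more. The lowest values are 1.13 CPM in the Sca/+ column and 1.85 CPM in the WT column, each being 2 steps, and no gene is listed at 0 in a usable column. Genes with fewer reads in any of these tissues are thus missing from the comparison. Because CPM is not corrected for transcript length, levels are compared between groups and not between genes.

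**Figure D1:**
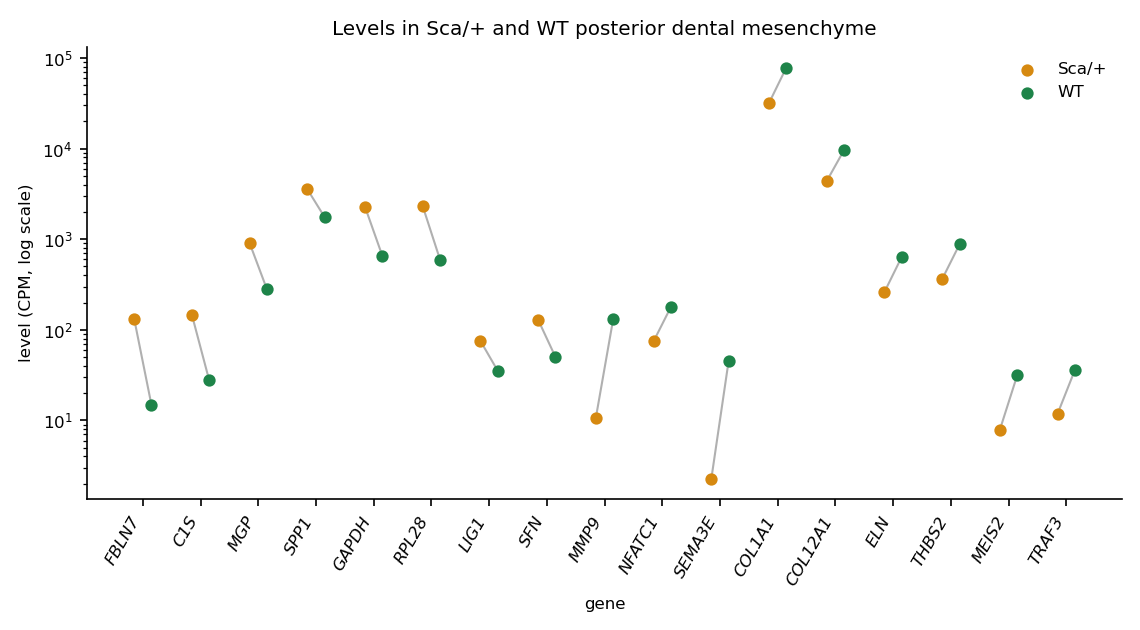
Levels of 17 genes described in the text in Sca/+ (left point of each pair) and WT (right point) posterior dental mesenchyme, in CPM on a log axis, 1 deposited value per group with no replicate error. FBLN7 lies at 133 CPM in Sca/+ and 14.8 CPM in WT, and MMP9 at 10.8 CPM in Sca/+ and 132 CPM in WT.

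The labelled tissue was checked against marker genes. Of 38 markers of dental mesenchyme, 28 are in the table, among them VIM (the intermediate filament vimentin) at 2455 CPM in Sca/+ and 2378 CPM in WT mesenchyme, PDGFRA (a receptor of platelet-derived growth factor) at 748 CPM in Sca/+ and 676 CPM in WT mesenchyme and the homeobox gene PRRX1 at 238 CPM in Sca/+ and 169.6 CPM in WT mesenchyme. Their summed level was 84911 CPM in Sca/+ and 164190.0 CPM in WT mesenchyme, against 21767 CPM in Sca/+ posterior epithelium. Most of the sum in each mesenchyme column comes from COL1A1 and COL1A2, which encode type I collagen. These stood at 31881 and 13286 CPM in Sca/+ and 78297 and 27294 CPM in WT mesenchyme, so the sums mainly follow these 2 genes. The epithelial markers add up to 8732 CPM in Sca/+ mesenchyme and 5381 CPM in WT mesenchyme, against 25015 CPM in Sca/+ posterior epithelium. CDH1 (E-cadherin) was at 179.6 CPM in Sca/+ and 83.4 CPM in WT mesenchyme. Epithelial marker transcripts were present in both columns, with the higher sum in Sca/+. The sums of the other cell types were 2329 CPM in Sca/+ and 3599.5 CPM in WT for endothelium (12 of 25 markers in the table), 312 CPM in Sca/+ and 261 CPM in WT for leukocytes (7 of 24), and 2170.3 CPM in Sca/+ and 1953 CPM in WT for nerve and glia (6 of 20). Most of the endothelial sum in each column comes from VWF, at 1251 CPM in Sca/+ and 2260 CPM in WT, and the list median was -0.07. Most of the nerve and glia sum comes from MBP, at 1241 CPM in Sca/+ and 1008 CPM in WT. These sums therefore do not stand for their cell types. In these bulk samples, fewer cells of a type cannot be told apart from less RNA per cell.

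Of the 9987 genes, 886 were at least 1 log2 unit higher in Sca/+ than in WT posterior mesenchyme (8.87%) and 807 at least 1 log2 unit lower (8.08%). The median difference of all genes was 0.00 log2 units, and 83.0% of the genes lay within 1 log2 unit of equality. The interval left out 0 for 788 of the higher and 734 of the lower genes, and it lay wholly beyond 1 log2 unit for 122 and 118. Calls were most frequent among weakly expressed genes. In the lowest decile of genes by mean level 19.3% were higher and 19.6% lower, and in the ninth decile 2.30% and 0.50%. In the highest decile the balance was uneven, with 10.0% higher and 0.90% lower. Of the 886 higher genes at all levels, 58 encode cytosolic ribosomal proteins, a highly expressed family described below. Their number within this decile was not counted. Just inside the filter lie MTERF4 and DPF3, with means of 3.0005 and 3.0006 log2 CPM and differences of 0.29 and -1.35, and just outside it lie P2RX4 and LOC110074535, with means of 2.9996 and 2.9998 and differences of 0.51 and 0.29.

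**Figure D2:**
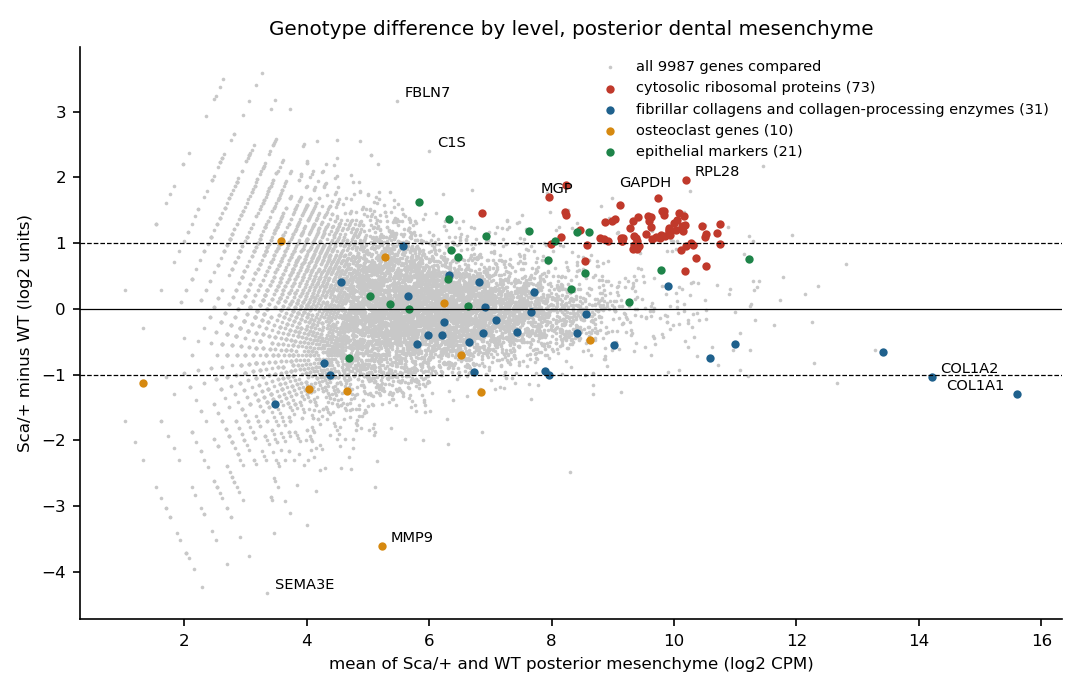
Difference of each of the 9987 genes, Sca/+ minus WT in log2 units, against the mean of the 2 columns in log2 CPM, with 4 gene lists in colour and dashed lines at 1 log2 unit. The ribosomal protein genes lie at the right above 0, between 0.58 and 1.96, and COL1A1 and COL1A2, the genes with the highest levels on the plot among the collagens, lie below -1.

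The gene whose interval lay farthest above 0 was FBLN7, which encodes fibulin 7, an adhesion protein of the extracellular matrix known from developing teeth and cartilage in the mouse. It had 133 CPM in Sca/+ and 14.8 CPM in WT mesenchyme, a difference of 3.16 log2 units (counting interval 2.43 to 3.99). C1S, a serine protease of the complement system, had 147 CPM in Sca/+ and 27.8 CPM in WT mesenchyme and differed by 2.40 log2 units (counting interval 1.85 to 3.00). MGP, an inhibitor of calcification in soft tissues, had 908 CPM in Sca/+ and 281 CPM in WT mesenchyme and differed by 1.69 log2 units (counting interval 1.51 to 1.87). Among highly expressed genes outside the ribosome, the glycolytic enzyme gene GAPDH stood at 2275 CPM in Sca/+ and 655 CPM in WT mesenchyme, 1.80 log2 units (counting interval 1.68 to 1.91). AQP9, a channel for water and glycerol, and FBXO42, of a ubiquitin ligase, both had 74.8 CPM in Sca/+ and 14.8 CPM in WT mesenchyme. ZNF800, a zinc finger protein, had 70.8 CPM in Sca/+ and 12.1 CPM in WT mesenchyme. In Sca/+ posterior epithelium, MGP, GAPDH, AQP9 and FBLN7 stood at 1364, 3943, 95.5 and 108 CPM. C1S, FBXO42 and ZNF800 stood at 17.4, 25.2 and 27.4 CPM there. The part of epithelial transcripts in these differences was not tested. The ribosomal protein genes RPL28, RPS28 and RPS27A also belong to this top group and are described with the ribosome. The remaining genes of the group rest on 3 to 5 steps in WT and have wide intervals. RALYL, an RNA-binding protein, stood at 29.5 CPM in Sca/+ against 2.78 CPM in WT (1.78 to 5.73), ZFAND1, a protein of stress granule clearance, at 33.4 CPM in Sca/+ against 3.71 CPM in WT (1.74 to 5.09). CTDNEP1, a phosphatase of the nuclear envelope, stood at 38.0 CPM in Sca/+ against 4.63 CPM in WT (1.74 to 4.70). MAST3, a kinase, had 30.6 CPM in Sca/+ against 3.71 CPM in WT (1.61 to 4.97). RNF39, a RING finger protein, had 24.9 CPM in Sca/+ against 2.78 CPM in WT (1.52 to 5.50).

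In the other direction MMP9, the matrix protease gelatinase B that osteoclasts and leukocytes release, had 10.8 CPM in Sca/+ and 132 CPM in WT mesenchyme, a difference of -3.61 log2 units (counting interval -4.39 to -2.92). SEMA3E, a secreted guidance cue for axons and vessels, had 2.27 CPM in Sca/+ and 45.4 CPM in WT mesenchyme, -4.33 log2 units (counting interval -6.26 to -2.88). KEL, an endopeptidase known as a blood group antigen, had 5.10 CPM in Sca/+ and 50.1 CPM in WT mesenchyme, -3.30 log2 units (counting interval -4.50 to -2.27). By the deposited values these genes were 12.2-fold, 20.0-fold and 9.82-fold lower in Sca/+. CHKA, which phosphorylates choline for membrane synthesis, had 13.6 CPM in Sca/+ and 89.0 CPM in WT mesenchyme. PTPRT, a receptor tyrosine phosphatase, had 15.9 CPM in Sca/+ and 78.8 CPM in WT mesenchyme. ACE, the angiotensin-converting enzyme, had 4.53 CPM in Sca/+ and 34.3 CPM in WT mesenchyme (-4.23 to -1.79). ADGRG1, an adhesion receptor coupled to G proteins, had 2.27 CPM in Sca/+ and 25.0 CPM in WT mesenchyme (-5.44 to -1.94). WDR17 stood at 6.80 CPM in Sca/+ against 46.4 CPM in WT, ARFGAP1, which acts in vesicle transport from the Golgi, at 4.53 CPM in Sca/+ against 38.9 CPM in WT. SMIM7, a small membrane protein, stood at 3.40 CPM in Sca/+ against 36.1 CPM in WT. The remaining genes of this group, ALG8, NUDT8, SERAC1, SUPT7L and ABAT, lay between 1.13 and 3.97 CPM in Sca/+ and between 17.6 and 29.7 CPM in WT, which is as few as 2 steps in Sca/+. Of genes without a symbol, LOC110090298 was listed at 5924 CPM in Sca/+ and 1314 CPM in WT mesenchyme. LOC110086873 was listed at 134 CPM in Sca/+ and 745 CPM in WT mesenchyme. No product is paired with either identifier.

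Genes of the collagenous matrix lay mostly below 0, with type I collagen lower in Sca/+ by more than the rule of 1 log2 unit. COL1A1, which encodes the alpha 1 chain of type I collagen, the main protein of bone, dentin and ligament, was listed at 31881 CPM in Sca/+ and 78297 CPM in WT mesenchyme, a difference of -1.30 log2 units (counting interval -1.31 to -1.28). In terms of the whole column, COL1A1 made up 3.06% of the summed CPM in the Sca/+ column and 7.47% in the WT column. COL1A2, of the alpha 2 chain, made up 1.28% and 2.60%, with 13286 CPM in Sca/+ and 27294 CPM in WT, a difference of -1.04. Of 31 fibrillar collagens and collagen-processing enzymes compared, 5 were lower (16.1%, against 8.08% of all genes) and none was higher. Of these genes 23 had a difference below 0, against 4999 of all 9987, and the list median was -0.40 against 0.00 for all genes. The other lower members were PLOD1, a lysyl hydroxylase of collagen (6.80 CPM in Sca/+ and 18.5 CPM in WT mesenchyme), COL11A1, a minor fibrillar collagen of cartilage (175 CPM in Sca/+ and 352 CPM in WT mesenchyme), and COL27A1 (14.7 CPM in Sca/+ and 29.7 CPM in WT mesenchyme). COL3A1, the collagen of soft connective tissue, differed by -0.66 and stayed within 1 log2 unit. P4HB, a subunit of prolyl hydroxylase, and COLGALT1, a galactosyltransferase of collagen, differed by 0.35 and 0.95.

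The remaining matrix lists had medians below 0 as well. Among 29 other collagens and basement membrane genes (median -0.47), 23 differences lay below 0. COL12A1, a collagen that decorates fibrils in ligament and bone, was lower, with 4388 CPM in Sca/+ and 9634 CPM in WT mesenchyme and a difference of -1.13. COL6A3 and COL16A1 differed by -0.83 and -0.89. COL12A1 was the only lower gene of this list (3.45%, against 8.08% of all genes). The 2 that were higher (6.90%, near the 8.87% of all genes) code for laminin chains. LAMC3 was at 20.4 CPM in Sca/+ and 4.63 CPM in WT mesenchyme, the latter 5 steps (0.78 to 3.84). LAMB3, a chain of epithelial laminin, was at 132 CPM in Sca/+ and 62.1 CPM in WT mesenchyme. Of 35 matricellular, elastic fiber and proteoglycan genes (median -0.30), 3 were lower (8.57%, near the 8.08% of all genes), namely ELN (elastin, 262 CPM in Sca/+ and 639.6 CPM in WT mesenchyme), THBS2 (thrombospondin 2, 364 CPM in Sca/+ and 875 CPM in WT mesenchyme) and POSTN (periostin of the periodontal ligament and periosteum, 1654 CPM in Sca/+ and 3363 CPM in WT mesenchyme), and FBLN7 alone was higher. TNC, the matrix protein tenascin C, differed by -0.97 log2 units (counting interval -1.21 to -0.74). Of 26 matrix proteases and inhibitors (median -0.47), 5 were lower (19.2%) and none was higher. They include MMP9, ADAMTS9, a protease of proteoglycans (14.2 CPM in Sca/+ and 35.2 CPM in WT mesenchyme), FAP, a protease of activated fibroblasts (94.0 CPM in Sca/+ and 215 CPM in WT mesenchyme), and ADAMTS12 (40.8 CPM in Sca/+ and 91.8 CPM in WT mesenchyme), while MMP19 differed by -0.96.

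**Figure D3:**
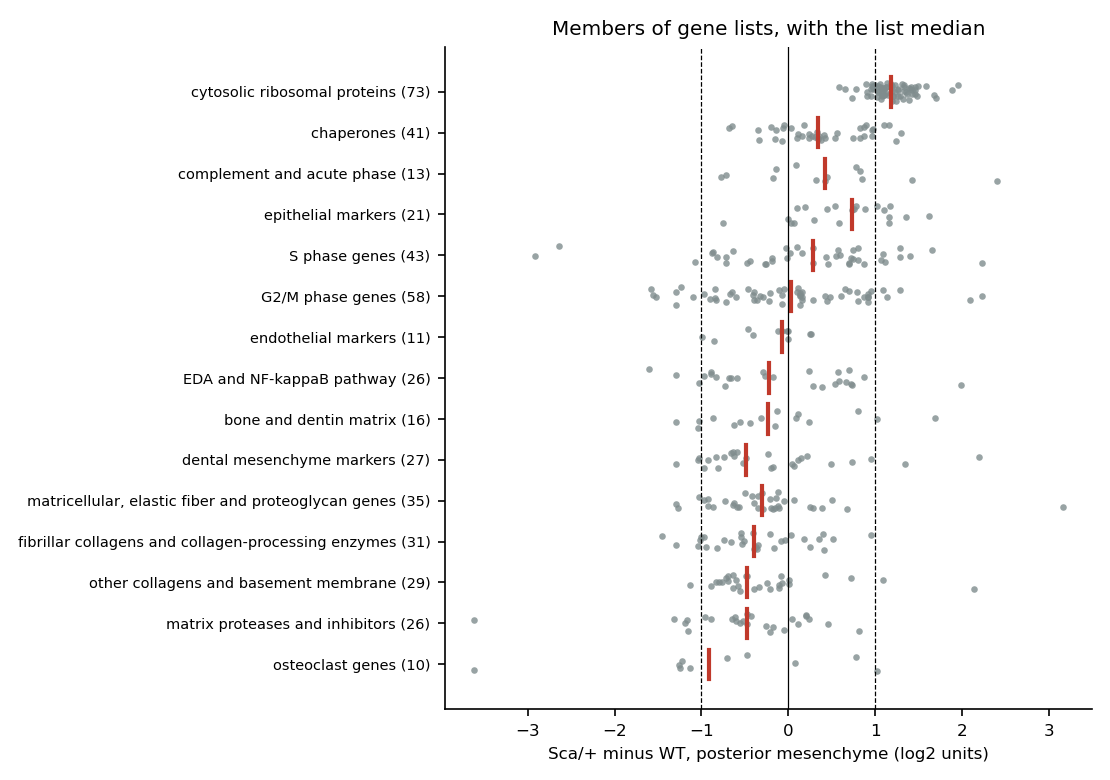
Differences of the members of 15 gene lists, Sca/+ minus WT in posterior mesenchyme in log2 units, 1 grey point per gene and a red bar at the list median, with dashed lines at 1 log2 unit. The ribosomal protein genes all lie above 0 around a median of 1.18, the matrix lists have medians between -0.47 and -0.30, and the 10 osteoclast genes have the lowest median of the lists shown, -0.91.

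Genes of mineralized tissue went in different directions. Of 16 bone and dentin genes (median -0.23), 3 were lower (18.8%, against 8.08% of all genes), COL1A1, COL1A2 and SP7 (osterix, a transcription factor of osteoblasts), the last with 43.6 CPM in Sca/+ and 89.0 CPM in WT mesenchyme and a difference of -1.03 log2 units (counting interval -1.48 to -0.58). COL1A1 and COL1A2 are also counted in the lists of fibrillar collagens and of dental mesenchyme markers. RUNX2, the factor upstream of SP7 in osteoblasts, differed by -0.44. MGP was higher, as described above, and so was SPP1 (osteopontin), a phosphoprotein of bone surfaces, with 3564 CPM in Sca/+ and 1750.2 CPM in WT mesenchyme and a difference of 1.03 log2 units (counting interval 0.95 to 1.10). BGLAP (osteocalcin) and IBSP (bone sialoprotein), made by mature osteoblasts, differed by 0.11 and 0.09. Of 7 cartilage markers (median -0.68), COMP, a matrix protein of cartilage and tendon, was at 26.6 CPM in Sca/+ and 65.8 CPM in WT mesenchyme, and SOX9, the transcription factor of chondrocytes, differed by -0.82.

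Osteoclasts, the multinucleated cells that resorb bone and tooth roots, are represented by 10 genes compared, of which 5 were lower and 1 was higher (median -0.91). Over all genes 8.08% were lower and 8.87% higher. Besides MMP9, the lower genes were NFATC1, the transcription factor that drives osteoclast differentiation (74.8 CPM in Sca/+ and 179 CPM in WT mesenchyme, -1.26 log2 units (counting interval -1.59 to -0.93)), ITGB3, the beta 3 integrin subunit of the sealing zone (16.4 CPM in Sca/+ and 38.9 CPM in WT mesenchyme), and CLCN7, the chloride channel of the resorption lacuna (10.8 CPM in Sca/+ and 25.0 CPM in WT mesenchyme). TNFRSF11A, the receptor RANK, met the same rule with 1.70 CPM in Sca/+ against 3.71 CPM in WT, but its interval spans 0 (-3.90 to 1.44). ACP5, the tartrate-resistant phosphatase, and CTSK, the collagenase cathepsin K, are defining products of the mature cell and differed by -0.70 and -0.47. The proton pump subunit TCIRG1 differed by 0.08, OSTM1, the partner of CLCN7, by 0.78, and the endosomal sorting nexin SNX10, the higher gene, by 1.03 (-0.08 to 2.29). CSF1, the growth factor of macrophages and osteoclasts, stood at 7.36 CPM in Sca/+ and 26.9 CPM in WT mesenchyme, -1.87 log2 units (counting interval -2.94 to -0.88), and its receptor CSF1R differed by -0.31. The leukocyte markers, of 6 compared, had 1 higher gene, C1QA of the complement (21.5 CPM in Sca/+ and 6.49 CPM in WT mesenchyme), and 1 lower gene, PTPRC (CD45; -1.03, -2.26 to 0.16). TNFRSF11A, SNX10, PTPRC and the other members without an interval clear of 0 are named because of their place in a short count, after their values were seen.

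Epithelial markers lay mostly above 0 in this comparison. Of 21 compared, 7 were at least 1 log2 unit higher (33.3%, against 8.87% of all genes) and none was lower, and 20 differences lay above 0 (median 0.74). SFN, the epithelial 14-3-3 protein stratifin, had 129 CPM in Sca/+ and 50.1 CPM in WT mesenchyme. The desmosome genes PKP3, PKP1 and PERP differed by 1.18, 1.16 and 1.16. KRT8, a simple epithelial keratin, and CDH1 were past the rule as well (1.03 and 1.11). TP63, the transcription factor of basal epithelial cells, and ITGB4, of their hemidesmosomes, differed by 0.04 and 0.10. Over 302 genes that were at least 1 log2 unit higher in epithelium than in mesenchyme at the anterior position in both genotypes, columns that do not enter the comparison, the median posterior difference was 0.32, with 69 higher and 27 lower. Over 755 genes at least 1 log2 unit higher in mesenchyme there, it was -0.20, with 27 higher and 71 lower. In both sets the share of lower genes was near the 8.08% of all genes. The share of higher genes was above the 8.87% of all genes in the epithelial set and below it in the mesenchymal set. The part of these shifts in the lower collagen levels and in the other gene groups was not tested.

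Markers of the mesenchyme itself did not move as 1 block. Of 27 compared, 3 were lower, COL1A1, COL1A2 and POSTN, and 2 were higher, the homeobox gene MSX2, with 8.50 CPM in Sca/+ and 1.85 CPM in WT mesenchyme (2.20 log2 units (counting interval 0.09 to 5.37)), and the cell surface glycoprotein THY1 of fibroblasts, with 42.5 CPM in Sca/+ and 16.7 CPM in WT mesenchyme (1.35 log2 units (counting interval 0.59 to 2.18)). The shares, 7.41% higher and 11.1% lower, compare with 8.87% and 8.08% of all genes. The list median was -0.49, and its secreted matrix members ran from -1.30 for COL1A1 to -0.17 for LUM (lumican). Among its transcription factors, ZEB2, LHX8 and ZEB1 differed by -0.52, -0.49 and -0.24, and MSX1, TWIST1, PRRX1, DLX5 and PAX9 by 0.06, 0.22, 0.49, 0.74 and 0.95. Endothelial markers had 0 higher and 0 lower genes of 11 (median -0.07), with VWF, the clotting factor of endothelium, at 1251 CPM in Sca/+ and 2260.0 CPM in WT mesenchyme and MMRN1 of lymphatic vessels at -0.99. PECAM1 and TIE1 differed by 0.25 and 0.26. Of 10 pericyte and smooth muscle markers (median -0.12), 0 were higher and 0 lower, with 3 differences above 0 and 7 below. SMTN, ACTA2 and CSPG4 differed by -0.75, -0.56 and -0.50, and TAGLN, ABCC9 and MYLK by 0.51, 0.19 and 0.05. Among 5 nerve and glia markers (median 0.04), MBP, the myelin basic protein, had 1241 CPM in Sca/+ and 1008 CPM in WT mesenchyme and ERBB3, a receptor of glial cells, differed by 0.52. The 2 erythroid markers, the 2 of skeletal muscle and the 1 enamel gene compared all stayed within 1 log2 unit, with TSPO2 of red cell precursors at -0.78.

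The genes of cytosolic ribosomal proteins, the protein components of the ribosome, were higher in Sca/+ almost as a whole. Of 73 compared, 58 were at least 1 log2 unit higher (79.5%, against 8.87% of all genes) and none was lower, every difference lay above 0 with an interval clear of 0, and the median was 1.18 (range 0.58 to 1.96). RPL28 had 2309.6 CPM in Sca/+ and 594 CPM in WT mesenchyme, RPS28 581 CPM in Sca/+ and 158 CPM in WT mesenchyme, RPS27A, which is made as a fusion with ubiquitin, 1535 CPM in Sca/+ and 479 CPM in WT mesenchyme. RPL35 and RPS21 differed by 1.70 and 1.58. Together these genes took 8.84% of the summed CPM in the Sca/+ column and 3.89% in the WT column. In Sca/+ posterior epithelium their sum was 119726 CPM, against 92080.2 CPM in Sca/+ mesenchyme and 40777 CPM in WT mesenchyme. How the authors' counting treated reads that match several gene copies is not given in the sources used here. The values of ribosomal genes and of GAPDH are uncertain as far as such copies exist in this genome, which was not examined.

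Among short genes more were higher than lower in Sca/+, also outside the ribosome. The genomic span of a gene was taken from the RefSeq annotation of another assembly of the species (PviZW2.1) and available for 8970 genes (89.8%). It was related to the difference with a Spearman rho of -0.24 across genes, which are not independent replicates and share the same columns. In the shortest decile (up to 7509 bases) the median difference was 0.35, with 194 genes higher and 56 lower, and in the longest decile (from 129662 bases) it was -0.19, with 30 higher and 70 lower. Up to the ninth decile, the share of higher genes was smaller in each decile than in the decile before it, whereas the share of lower genes ranged only from 6.24% to 9.14%. Without the 47 ribosomal protein genes in it, the shortest decile had 156 higher and 56 lower genes of 850 and a median of 0.29, and rho over all genes without the ribosomal ones was -0.22. The ribosomal protein genes had a median span of 5777 bases, the fibrillar collagens and their enzymes one of 52257 bases, and all genes one of 29688 bases. In anterior mesenchyme rho was -0.12. RNA integrity values of the samples were not used here, and the part of RNA quality or library preparation in this relation was not tested.

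**Figure D4:**
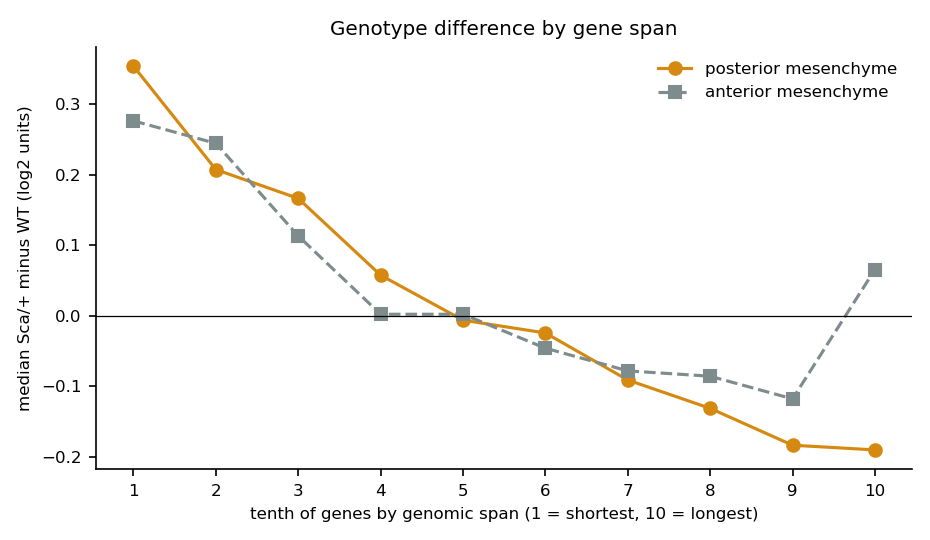
Median difference, Sca/+ minus WT in log2 units, of genes in deciles of genomic span from the shortest to the longest, 897 genes per decile, for posterior mesenchyme (circles) and anterior mesenchyme (squares). The posterior medians run from 0.35 in the shortest decile to -0.19 in the longest, and the anterior medians from 0.28 to 0.07 with a low of -0.12 in the ninth.

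EDA itself, the locus mutated in Sca/+, was near the lower limit of the table, with 6.23 CPM in Sca/+ and 11.1 CPM in WT mesenchyme and a difference of -0.84 log2 units (counting interval -2.16 to 0.47), so that no difference was detectable at this depth. These reads do not check the genotype, since a mutated copy can still be transcribed. The adaptor EDARADD, with 2.83 CPM in Sca/+ and 5.56 CPM in WT mesenchyme, differed by -0.97 log2 units (counting interval -3.02 to 1.00), and NFKBIA by 0.58 log2 units (counting interval -0.06 to 1.26). The receptor EDAR, as well as SHH, FGF20, ALX1 and SIX3, is not among the 11126 genes under these symbols and could not be compared. Of 26 genes of the EDA and NF-kappaB pathway, 1 was higher and 3 were lower (median -0.22), that is 3.85% and 11.5% of the list against 8.87% and 8.08% of all genes. The higher one was TAB1, a partner of the kinase TAK1, from few steps (14.7 CPM in Sca/+ against 3.71 CPM in WT, 0.46 to 3.97). The lower ones were TRAF3, which restrains the noncanonical NF-kappaB branch, with 11.9 CPM in Sca/+ and 36.1 CPM in WT mesenchyme, the nuclear IkappaB protein BCL3, with 7.93 CPM in Sca/+ and 19.5 CPM in WT mesenchyme, and BIRC2, an inhibitor of apoptosis that ubiquitinates signalling proteins, with 44.2 CPM in Sca/+ and 89.9 CPM in WT mesenchyme. Among the NF-kappaB subunits, NFKB1 differed by -0.88 (-1.54 to -0.23), NFKB2 by 0.67 (0.08 to 1.30) and RELA by 0.73 (-0.01 to 1.53).

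Of the other signalling pathways of tooth development, Wnt, TGF-beta and BMP, FGF and Notch had medians near 0, and Hedgehog had one of -0.23. Single genes differed in both directions. In the Wnt pathway 2 of 43 genes were higher and 5 lower (median -0.02), that is 4.65% and 11.6% against 8.87% and 8.08% of all genes. Among ligands and secreted inhibitors, WNT5B was lower at 11.9 CPM in Sca/+ and 35.2 CPM in WT mesenchyme, the inhibitor SFRP1 was lower at 15.3 CPM in Sca/+ and 44.5 CPM in WT mesenchyme. The inhibitor WIF1 was higher at 55.5 CPM in Sca/+ and 19.5 CPM in WT mesenchyme. The receptor FZD4 differed by -1.07, and the nuclear effector TCF7 by -1.71. In the TGF-beta and BMP pathway 2 of 36 were higher and 1 lower (median -0.02), and both shares, 5.56% and 2.78%, are below those of all genes. BMP7, a ligand expressed in tooth germs of mammals, was at 33.4 CPM in Sca/+ and 14.8 CPM in WT mesenchyme, FSTL3, which binds activin, at 27.2 CPM in Sca/+ and 10.2 CPM in WT mesenchyme. The activin receptor ACVR1B was at 11.9 CPM in Sca/+ and 44.5 CPM in WT mesenchyme. The intracellular SMAD1 and its ubiquitin ligase SMURF1 differed by -0.69 and -0.71.

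In the Hedgehog pathway 1 of 18 genes was higher and 1 lower (median -0.23), 5.56% each way against 8.87% and 8.08% of all genes. PTCH1, the main receptor and a target of the pathway, differed by -0.50, the coreceptor GAS1 by -0.94, and the ligand release factors DISP1 and SCUBE2 by -0.54 and 0.84. In the FGF pathway none of 16 was higher and 2 were lower (median -0.08), the ligand FGF9 at 4.53 CPM in Sca/+ and 13.0 CPM in WT mesenchyme and SPRY4, a feedback inhibitor, at 11.3 CPM in Sca/+ and 32.4 CPM in WT mesenchyme. Another feedback inhibitor, DUSP6, differed by 0.79 and the mesenchymal ligand FGF7 by 0.60. In the Notch pathway 1 of 21 was higher, the ligand DLL4 at 31.2 CPM in Sca/+ and 13.0 CPM in WT mesenchyme, and none was lower (median 0.02), with LFNG and RFNG, which glycosylate Notch, at -0.85 and -0.83.

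Of 34 transcription factors of tooth and jaw, 2 were higher and 4 lower (median 0.03), that is 5.88% and 11.8%, near the 8.87% and 8.08% of all genes. The higher ones were MSX2 and OSR2, a repressor that limits the tooth row in the mouse (64.0 CPM in Sca/+ and 31.5 CPM in WT mesenchyme). The lower ones were MEIS2, a homeobox cofactor (7.93 CPM in Sca/+ and 31.5 CPM in WT mesenchyme), EYA4, a transcriptional coactivator (17.0 CPM in Sca/+ and 52.8 CPM in WT mesenchyme), IRX1 (4.53 CPM in Sca/+ and 13.9 CPM in WT mesenchyme) and SOX11 (15.9 CPM in Sca/+ and 34.3 CPM in WT mesenchyme). PITX1 and PAX9, which are expressed early in tooth fields, differed by 0.73 and 0.95, both with intervals clear of 0. SOX2, a marker of dental stem cells, stood at 2.27 CPM in Sca/+ against 1.85 CPM in WT (-2.51 to 3.76), too few steps to show a difference.

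Genes of the cell cycle went both ways. Of 43 S phase genes, 8 were higher and 3 lower (median 0.29), 18.6% and 6.98% against 8.87% and 8.08% of all genes. Subunits of replication factor C, which loads the sliding clamp onto DNA, were among the higher ones, RFC2 at 144 CPM in Sca/+ and 66.7 CPM in WT mesenchyme, RFC3 and RFC4 at 1.06 and 1.41, with RFC5 at 0.81 and the large subunit RFC1 at -0.27. LIG1, the DNA ligase of lagging strand synthesis, had 75.3 CPM in Sca/+ and 35.2 CPM in WT mesenchyme, CHAF1A, of a histone chaperone, 17.6 CPM in Sca/+ against 5.56 CPM in WT. TYMS, the enzyme of thymidylate synthesis, had 13.0 CPM in Sca/+ against 2.78 CPM in WT. PRIM1, of the primase, and UHRF1, which maintains DNA methylation, went the other way, with 2.83 CPM in Sca/+ and 21.3 CPM in WT mesenchyme and 2.83 CPM in Sca/+ and 17.6 CPM in WT mesenchyme. PCNA, the sliding clamp itself, differed by 0.43 log2 units (counting interval -0.10 to 0.98). Of 58 G2/M phase genes, 5 were higher and 7 lower (median 0.03), 8.62% and 12.1%, near the shares of all genes. CCNB1 (cyclin B1) had 15.3 CPM in Sca/+ and 13.9 CPM in WT mesenchyme, a difference of 0.14 log2 units (counting interval -0.82 to 1.15). ECT2 and CDCA3, which act in cytokinesis and entry into mitosis, differed by 2.10 and 2.23, and HMMR, ASPM and KIF4A, of the spindle, by -1.58, -1.52 and -1.30. No cell cycle inhibitor of 12 passed 1 log2 unit (median 0.27), with WEE1, a kinase that delays mitosis, at 0.97 and RB1 at 0.41.

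Among chaperones 4 of 41 genes were higher (9.76%, near the 8.87% of all genes) and none was lower (median 0.34), namely DNAJA2, a cochaperone of HSP70 (272 CPM in Sca/+ and 110.3 CPM in WT mesenchyme), CHORDC1, DNAJB9 and STIP1, and CCT3 of the cytosolic chaperonin differed by 0.97. In glycolysis and hypoxia 2 of 32 were higher and 3 lower (median 0.37), 6.25% and 9.38%, near the 8.87% and 8.08% of all genes. Against GAPDH, the lower genes were PFKL and PFKP, isoforms of phosphofructokinase, with 17.6 CPM in Sca/+ and 52.8 CPM in WT mesenchyme and 32.3 CPM in Sca/+ and 94.5 CPM in WT mesenchyme, and the lactate transporter SLC16A1 (3.40 CPM in Sca/+ against 16.7 CPM in WT). In cholesterol and fatty acid synthesis 3 of 22 were lower and 1 higher (median -0.23), 13.6% and 4.55%. ACACA and FASN, the enzymes that make fatty acids, were both lower, with 15.9 CPM in Sca/+ and 51.0 CPM in WT mesenchyme and 29.5 CPM in Sca/+ and 59.3 CPM in WT mesenchyme. SC5D, of the last steps of cholesterol synthesis, was just short of the rule with 25.5 CPM in Sca/+ and 51.0 CPM in WT mesenchyme, and PMVK, of the mevalonate pathway, differed by 1.20.

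Complement genes had 2 higher members of 13 and no lower one (median 0.42), 15.4% against 8.87% of all genes, and the interval of C2, one of them, spans 0. Beside C1S, C2 had 12.5 CPM in Sca/+ against 4.63 CPM in WT (-0.01 to 3.18). C1R, the partner of C1S, had 33.4 CPM in Sca/+ and 19.5 CPM in WT mesenchyme, a difference of 0.78. SERPING1, which inhibits both proteases, had 136 CPM in Sca/+ and 76.9 CPM in WT mesenchyme, a difference of 0.82 log2 units (counting interval 0.46 to 1.20). The iron store FTH1 (ferritin) differed by 0.84 and the extracellular chaperone CLU by -0.78. Of 13 genes of interferon and antigen presentation (median -0.31), TRIM25 was lower at 9.06 CPM in Sca/+ and 24.1 CPM in WT mesenchyme, and CD74, the invariant chain, differed by 0.77. Of 28 cytokines, chemokines and their receptors (median -0.08), IL22RA1, a receptor of epithelial cells, was among the higher ones at 18.7 CPM in Sca/+ against 3.71 CPM in WT, and CSF1 and TNFRSF6B, a soluble receptor that captures TNF ligands, were lower. Of 20 immediate early genes (median 0.08), JUND, GADD45B and ZFP36, which destabilizes inflammatory mRNAs, were lower at -2.48, -1.89 and -1.07, and the small GTPase RHOB was higher at 75.9 CPM in Sca/+ and 36.1 CPM in WT mesenchyme.

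The anterior mesenchyme of the same genotypes is the comparison most like this one, and it uses other columns, though tissues of the same animals. There, 11.5% of the genes were at least 1 log2 unit higher and 8.37% lower in Sca/+. Over all genes the root mean square of the genotype difference was 0.774 log2 units at the posterior and 0.846 at the anterior position, of which counting alone would give 0.362 and 0.410. Over the 1360 genes with at least 100 steps in all 4 columns it was 0.522 and 0.592. Across genes the 2 differences were weakly related, with r = 0.15 and rho = 0.17, and r = 0.38 over the 1360 genes (r = 0.26 without ribosomal proteins). Of the genes higher at the posterior position, 215 were higher at the anterior position too, 24.3% of the posterior and 18.7% of the anterior calls. Of those lower, 110 were shared, 13.6% of the posterior and 13.2% of the anterior calls. A further 93 genes were lower at the posterior and higher at the anterior position, and 66 the reverse. These are 11.5% of the posterior lower and 7.45% of the posterior higher genes, near the 11.5% and 8.37% of all genes that were higher and lower at the anterior position.

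**Figure D5:**
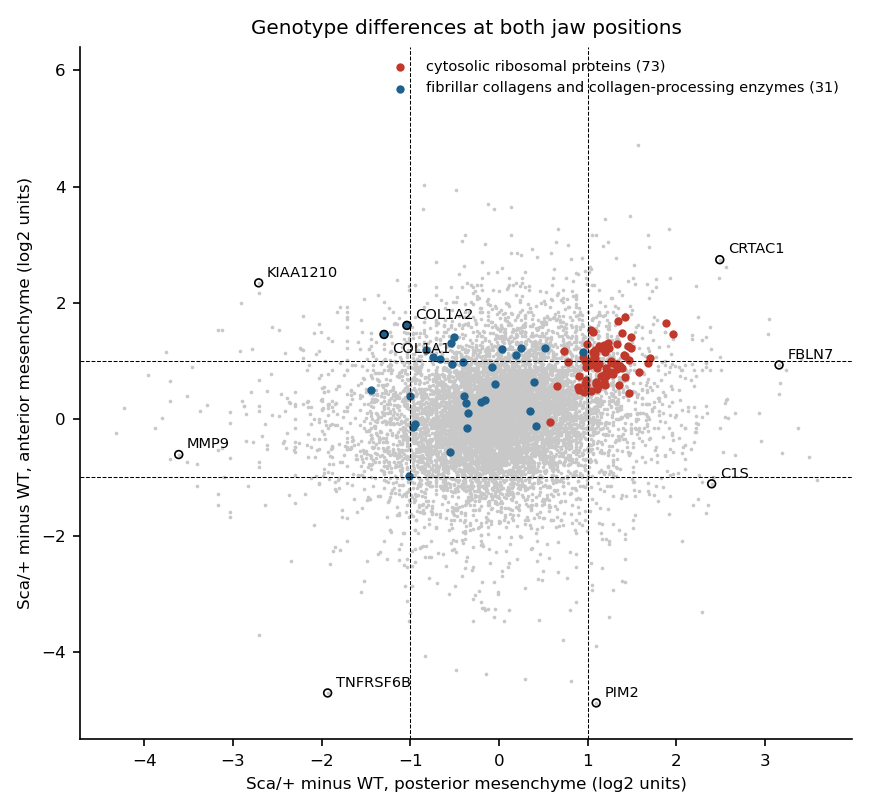
Genotype difference of each gene, Sca/+ minus WT in log2 units, in posterior mesenchyme (x axis) and anterior mesenchyme (y axis), with dashed lines at 1 log2 unit, 2 gene lists in colour and 9 genes circled and named. The ribosomal protein genes lie at the upper right (medians 1.18 posterior and 0.96 anterior), and COL1A1 and COL1A2 at the upper left, at -1.30 and -1.04 posterior and 1.46 and 1.61 anterior.

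The ribosomal proteins were higher at both positions, with 58 of 73 genes higher at the posterior and 32 at the anterior position and none lower at either. The epithelial markers had medians of 0.74 and 0.68. By the smaller of the 2 differences, the genes with a symbol that were highest at both were CRTAC1, a secreted protein of cartilage, with 2.49 posterior and 2.74 anterior, POGLUT1, which glycosylates Notch, with 2.23 and 2.28, and FAM131C, RING1, AMIGO2, PAK6, MPV17L2 and ZBTB7C, with differences between 1.73 and 2.24 at the posterior position. In posterior WT, POGLUT1 rests on 3 steps, FAM131C and MPV17L2 on 4, CRTAC1 on 5, RING1 on 6 and PAK6 on 8. The posterior intervals are wide, 1.17 to 4.18 for CRTAC1, 0.50 to 4.61 for POGLUT1 and 0.19 to 3.75 for MPV17L2. AMIGO2 and ZBTB7C rest on 17 and 12 steps there. Lowest at both were TXNRD1 and PRDX1, enzymes of the thioredoxin system. TXNRD1 differed by -2.71 posterior and -3.70 anterior, but at the posterior position it rests on 2 steps in Sca/+ and 8 in WT (1.13 CPM in Sca/+ against 7.42 CPM in WT, -5.98 to -0.39). PRDX1 differed by -2.35 and -2.44, with 9 steps in Sca/+ and 28 in WT at the posterior position (5.10 CPM in Sca/+ against 26.0 CPM in WT, -3.62 to -1.22). They were followed by TNFRSF6B (-1.93 and -4.71) and SCFD2, of vesicle transport, with 60.6 CPM in Sca/+ and 222 CPM in WT mesenchyme (-1.87 and -2.26). ARHGAP40, HTR4 and DMXL2 followed, between -2.09 and -1.80 at the posterior position.

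Of the 34 gene lists, 16 had a median below 0 at the posterior and above 0 at the anterior position, and 8 the reverse. The 16 include the matrix lists but also endothelial markers (-0.07 and 0.55), cartilage markers (-0.68 and 0.30) and the Hedgehog pathway (-0.23 and 0.61). The 755 genes higher in mesenchyme than in epithelium at the anterior position, a set chosen from the anterior columns, had medians of -0.20 and 0.19. The lists share members, COL1A1, COL1A2 and SPARC among them, so their medians are not independent of each other. COL1A1 had 31881 CPM in Sca/+ and 78297 CPM in WT mesenchyme at the posterior position, and 55449.8 CPM in Sca/+ and 20185 CPM in WT mesenchyme at the anterior position, so that the difference of the differences was -2.75 log2 units (counting interval -2.78 to -2.73). For COL1A2 it was -2.65 (-2.70 to -2.61). The fibrillar collagens and their enzymes had medians of -0.40 posterior and 0.63 anterior, where 12 genes were higher and none lower (over all genes there, 11.5% were higher and 8.37% lower), the matricellular genes -0.30 and 0.59, the bone and dentin genes -0.23 and 0.66, and the mesenchymal markers -0.49 and 0.60. The osteoclast genes had -0.91 and 0.13, with MMP9 at -3.61 and -0.61. The complement genes had the opposite pattern, with medians of 0.42 posterior and -1.11 anterior, where 7 were lower and 2 higher, FTH1 at 1.33 and CLU at 1.03. C1S had 147 CPM in Sca/+ and 27.8 CPM in WT at the posterior position but 398 CPM in Sca/+ and 859.6 CPM in WT at the anterior position. Chaperones had medians of 0.34 and -0.31 and G2/M genes 0.03 and -0.41.

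Other genes with a symbol whose genotype difference was more positive in posterior than in anterior mesenchyme were the kinase gene PIM2 (1.10 and -4.88), PLAU, the urokinase that activates plasminogen (0.81 and -4.51), TIMP1, an inhibitor of matrix proteases (-0.05 and -3.40), the cannabinoid receptor CNR1 (1.29 and -2.94), C2 (1.43 and -2.80), TNFAIP3, an inhibitor and target of NF-kappaB (0.87 and -3.13), and ACOT13 (2.29 and -3.32). In each of these 7 genes the anterior difference is the larger in size. For some it rests on few steps in anterior Sca/+. ACOT13 stands there at 1.30 CPM, which is 1 step (-8.70 to -0.66), PLAU at 2.60 CPM (-7.58 to -2.61) and PIM2 at 3.90 CPM (-7.17 to -3.30). More negative at the posterior position were KIAA1210 (-2.71 and 2.34), PRIM1 (-2.91 and 2.00), ADGRG1 (-3.47 and 0.90), ACE (-2.92 and 1.17), MOCS1, of molybdenum cofactor synthesis (-3.13 and 1.53), and the ubiquitin ligase LNX2 (-1.80 and 1.94). The column of anterior Sca/+ mesenchyme holds the fewest steps of all, 789353, and no spread between animals is available at either position.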

How the data were processed

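RNA of laser-captured dental tissue was sequenced in 24 samples (rRNA-depleted libraries, NextSeq 500, paired ends). The submitters' processing notes name Trimmomatic and STAR. By the study's methods the authors aligned and counted reads with STAR and normalized the counts with edgeR. Versions are not given in the sources used here. The values the authors deposited are log2 CPM, 1 column per group named as a mean. As CPM they sum to 1041110 in the Sca/+ column and 1047960 in the WT column. That is more than scaling to the plain total of a library could give, so differences between columns also depend on the authors' normalization. For posterior epithelium of WT no values were used, since 11121 of 11126 entries form an evenly stepped series in place of measurements.

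Values were returned to CPM, with the log base of 2 read from the values themselves. Multiples of the smallest step of a column were taken as counts (largest deviation 0.00503 CPM in Sca/+ and 0.00504 CPM in WT), and the exact 95% interval (Clopper-Pearson) of each log2 difference, Sca/+ minus WT, was computed from them. Genes averaging 3 log2 CPM or more over 7 columns were compared, without centring. The interval of a difference of differences combines the widths of both as a root sum of squares. No test was made, because each group has 1 value. The 34 gene lists, with 746 genes compared, and the members described were chosen with earlier results of these data known. The lists overlap, and a gene such as COL1A1, POSTN or MMP9 is counted in each list that holds it. The text names the 15 genes with a symbol in each direction whose interval bound nearest to 0 lay farthest from 0. It also names up to 5 genes of each list with the largest difference among those with an interval clear of 0. The rule further takes genes that the study names, the genes next to the filter and defining markers. It also takes the 8 genes in each direction most alike and most unlike in anterior mesenchyme. Other list members were added after their values were seen, and not all are marked where they appear. Some genes that the rule names are not reported here. Genes with a LOC number were to be named by product, and the reference tables used here pair none with them. Alternatives were other filters, other rules of size, centring, a pseudocount of 1 CPM and list means. The interval was tested on simulated data that held counting error only, with a step as 1 count. The simulation therefore cannot check that reading of a step, and it holds no variation between animals. Python 3.11.15 with numpy, pandas, scipy and matplotlib was used.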

Additional observations from a re-analysis of the deposited data

Results flagged for a closer look

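The genotype difference had opposite signs at the posterior and anterior position, with at least 1 log2 unit at each, in 12 of the 16 genes named for the size of that contrast. The difference between the positions was not tested, since each group has 1 value. Higher in Sca/+ at the posterior and lower at the anterior position were C1S (2.40 and -1.11), PIM2 (1.10 and -4.88), CNR1 (1.29 and -2.94), C2 (1.43 and -2.80) and ACOT13 (2.29 and -3.32). For PIM2 and C2 the posterior counting interval spans 0 (-0.57 to 3.16 and -0.01 to 3.18). ACOT13 rests on 3 steps in posterior WT (0.57 to 4.66). In anterior Sca/+ it stands at 1.30 CPM, the lowest value of that column and 1 step (-8.70 to -0.66).

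Lower in Sca/+ at the posterior and higher at the anterior position were COL1A1 (-1.30 and 1.46), COL1A2 (-1.04 and 1.61), KIAA1210 (-2.71 and 2.34), PRIM1 (-2.91 and 2.00), ACE (-2.92 and 1.17), MOCS1 (-3.13 and 1.53) and LNX2 (-1.80 and 1.94). COL1A1 and COL1A2 had 31881 and 13286 CPM in Sca/+ posterior mesenchyme, whereas KIAA1210, PRIM1 and MOCS1 had 4.53, 2.83 and 1.70 CPM there. These genes were chosen for the contrast, so their number says nothing about genes at large.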

How the results depend on the processing

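No paired analysis was possible because the table holds 1 column per group, and for the same reason no replicate could be left out. Of the genes higher and lower (886 and 807), 1976 and 1873 were counted at 0.58 log2 units, 88 and 124 at 2 log2 units, 122 and 118 with the interval wholly beyond 1, 308 and 175 among genes averaging 5 log2 CPM or more, and 320 and 340 with at least 20 steps in both columns. The other alternatives, among them 3 gene exclusions added after the data were seen, kept both counts within 1.5 times. Pearson r between the positions was 0.38 with at least 100 steps in all 4 columns and 0.24 with a mean of at least 5, and rho was 0.34 with at least 100 steps.

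The trimmed mean of 2344 genes (100 steps or more in each column) was -0.09 log2 units, and centring on it turned list medians close to 0 upward, to 0.0161 (endothelial), 0.0726 (Wnt), 0.0692 (TGF-beta and BMP), 0.00594 (FGF) and 0.0133 (cytokines). No filter gave -0.22 for leukocyte markers, -0.0171 for skeletal muscle and -0.00920 for G2/M genes. A mean of at least 5 gave -0.22 for leukocyte markers, 0.14 for erythroid markers, -0.29 for tooth and jaw factors and -0.23 for G2/M genes. At least 20 steps gave -0.0100 for Notch, -0.17 for tooth and jaw factors and -0.33 for G2/M genes, and list means were -0.0109 for Notch, -0.14 for immediate early genes and -0.00240 for G2/M genes, for which the list median was 0.03. The cause of these changes was not tested. The other list medians kept their sign under the alternatives run. All named genes with a difference of at least 1 log2 unit did so too. For single genes this outcome was fixed in advance, since centring and the pseudocount shift a value too little to turn such a difference.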

Other observations

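Gene families taken by the prefix of their symbol, after the values were seen, are given here as values. The 71 mitochondrial ribosomal proteins, which translate the mitochondrial genome, had a median difference of 0.50 log2 units in posterior mesenchyme, with 12 higher and 1 lower in Sca/+ (16.9% and 1.41%, against 8.87% and 8.08% of all genes, anterior median 0.21). The 41 genes of respiratory complex I and its assembly had 0.62, with 13 higher and 3 lower (31.7% and 7.32%), and NDUFA8 differed by 1.56. The 21 genes of ATP synthase and succinate dehydrogenase had 0.57, with 2 higher (9.52%, near the 8.87% of all genes) and none lower. Of their differences 20 lay above 0, against 4988 of all 9987 genes. The 7 subunits of the chaperonin CCT, which folds actin and tubulin, had 0.83 and stayed within 1 log2 unit. All 7 lay above 0 with intervals clear of 0, against 1878 of all 9987 genes. TCP1, the subunit without that prefix, stood at 0.34 with an interval of -0.01 to 0.69. The 10 Sm and snRNP proteins of the spliceosome had 0.73, with SNRPA at 2.93 log2 units.

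On the other side, the 32 histone methyltransferases and demethylases had a median of -0.27, with 3 lower (9.38%, near the 8.08% of all genes) and none higher, the 27 kinesins one of -0.31 and the 20 integrins one of -0.23. The median span was 7636 bases for mitochondrial ribosomal proteins and 7895 bases for complex I genes, against 58378 bases for the histone enzymes and 52012 bases for kinesins. The part of gene span in these medians was not tested.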
